A study of Mus musculus with 9 samples.

Results

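The SR proteins and the heterogeneous nuclear ribonucleoproteins (hnRNPs) were followed in B16F10, a melanin-producing mouse melanoma line, with Sirpa knocked down, overexpressed or left as it was. Sirpa codes for a surface receptor that binds CD47. The members were all genes whose symbols begin with Srsf and a number or with Hnrnp, together with Tra2a and Tra2b. They came to 35 of the 51717 genes in the transcript tables, 13 Srsf or Tra2 genes and 22 Hnrnp genes. The Sirpa knockdown line and the Sirpa overexpression line were each set against a non-target control line, with 3 libraries per line and 9 in all. All were B16F10 cells grown in the same serum-containing medium, and the libraries are described as biological repeats of 1 cell line per condition. The spread between repeats of a line is therefore measured, and the spread between independently made lines is not. How the lines were made, and whether they are clones or pools, is not given in the sources used here.

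SR proteins carry RNA recognition motifs and a tail rich in arginine and serine, bind exonic enhancers in pre-mRNA and help the spliceosome to define exons. hnRNPs coat nascent transcripts, and many of them hold back the use of the splice sites they cover. Many genes of both families regulate their own output through splicing: inclusion of a "poison" exon, or splicing within the part after the stop codon, leaves a stop upstream of an exon junction and directs the transcript to nonsense-mediated decay, while transcripts that keep an intron often stay in the nucleus.

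The libraries held 16.4 to 22.4 M estimated counts (M, 1000000). Sirpa followed the labels, with 118.1, 112.2 and 115.1 CPM (counts scaled to a library of 1000000) in the knockdown libraries and 894.9, 897.9 and 913.6 CPM in the overexpression libraries, against 292.5, 289.2 and 303.3 CPM in the control libraries. All 7 melanocyte markers checked were expressed, and their summed level was 14470 to 15550 TPM in the knockdown line, 15990 to 16020 TPM in the overexpression line and 14670 to 14920 TPM in the control line. TPM is a level per transcript length, scaled to 1000000 transcripts. Of 5 leukocyte markers, Ptprc, Cd3e and Adgre1 had 0 counts in every library, and Itgam and Csf1r did not. The 5 summed to at most 0.0306 TPM in the knockdown line, 0.0637 TPM in the overexpression line and 0.0202 TPM in the control line. Of 3 endothelial markers, Cdh5 and Kdr had 0 counts in every library, and Pecam1 did not. These 3 summed to at most 0.116 TPM with knockdown and 0.825 TPM with overexpression, against 0 TPM in the control line. The 4 fibroblast markers, of which 2 were expressed highly enough to be tested, summed to 2.58 to 4.41 TPM in the knockdown line and 16.01 to 18.02 TPM in the overexpression line, against 14.4 to 15.8 TPM in the control line. Their part in the differences below was not tested.

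The 35 genes have 298 transcripts in the annotation. Of these 139 are coding, 39 are marked for nonsense-mediated decay (in 21 genes), 80 are marked as retained intron (in 24 genes), 38 are processed transcripts without a reading frame and 2 are processed pseudogenes. The stop codon lay more than 50 bases before the last exon junction in all 39 decay transcripts, at a distance of 52 to 1801 bases with a median of 251. The annotation marks transcripts for decay by such a stop position, so this describes the class and is not a result about the members. In 17 of them the stop lay in no exon of any coding transcript of the gene, in 12 it was the same stop that a coding transcript uses, and in 10 it lay elsewhere in a coding transcript's exon. Decay transcripts with a stop of their own and with a shared stop, whose shares are described further on, are shown here with the 45 bases before the stop and the stop in capitals, from the GENCODE M21 transcript sequences (GRCm38) matched by transcript.
Srsf3-201 (decay, chromosome 17): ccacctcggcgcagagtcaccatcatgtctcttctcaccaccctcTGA
Tra2b-206 (decay, chromosome 16): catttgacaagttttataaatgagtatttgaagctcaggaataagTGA
Tra2a-202 (decay, chromosome 6): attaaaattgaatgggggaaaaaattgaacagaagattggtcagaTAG
Srsf7-203 (decay, chromosome 17): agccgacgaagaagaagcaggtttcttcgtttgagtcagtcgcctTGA
Srsf6-201 (decay, chromosome 2): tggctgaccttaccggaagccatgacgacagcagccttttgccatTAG
Hnrnpa1-203 (decay, chromosome 15): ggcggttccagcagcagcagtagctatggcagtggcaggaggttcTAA
Hnrnpa1-202 (coding, chromosome 15): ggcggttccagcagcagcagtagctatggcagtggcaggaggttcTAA
The stops of Srsf3-201, Tra2b-206, Tra2a-202 and Srsf7-203 lie in no exon of a coding transcript of their genes, which is the arrangement of a poison exon. Srsf6-201 ends at a stop that an annotated coding transcript of the gene also uses. It is not the stop of the leading coding transcript Srsf6-203, whose reading frame holds 339 codons against 135 in Srsf6-201. Hnrnpa1-203 and the leading coding transcript Hnrnpa1-202 end in the same bases. They differ in how far the last junction lies behind that stop, 90 bases in Hnrnpa1-203 and 14 bases in Hnrnpa1-202.

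Shared exon ends were searched for only within the 45 bases before the stop of each decay transcript. In 4 genes a decay transcript and a retained intron transcript were found to leave the same exon end there. The decay transcript does so by splicing into another exon and the retained intron transcript by reading on into the intron. The genes were Srsf3, Srsf7, Srsf11 and Hnrnpk, and other genes with an exon end shared further from the stop would have been missed. In the retained intron transcripts the first 30 bases of the intron are given in capitals behind the last 30 bases of the exon, and the stretch before the capitals can be found again in the decay transcript of the same gene.
Srsf3-204 (retained intron, chromosome 17): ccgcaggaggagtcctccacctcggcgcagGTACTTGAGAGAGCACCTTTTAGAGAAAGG
Srsf7-206 (retained intron, chromosome 17): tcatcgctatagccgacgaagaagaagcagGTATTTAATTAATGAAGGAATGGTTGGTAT
Srsf11-208 (retained intron, chromosome 3): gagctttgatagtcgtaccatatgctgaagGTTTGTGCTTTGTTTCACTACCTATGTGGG
Srsf11-206 (decay, chromosome 3): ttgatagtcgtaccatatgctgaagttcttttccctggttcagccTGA
From the shared exon end to the stop there are 31 bases in Srsf3-201, 25 in Srsf7-203 and 20 in Srsf11-206. Since only the 45 bases before a stop were searched, longer distances could not be found, and the short ones are not a result. Srsf11-208 reads 1988 bases into its intron and ends there, while Srsf3-204 and Srsf7-206 keep whole introns of 2150 and 874 bases.

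By level per transcript length the family was led by hnRNPs. Hnrnpa2b1, which binds RNA in the nucleus and sorts RNA into granules, had the highest level, 1284 ± 97.3 TPM in the knockdown line and 1349 ± 26.0 TPM in the overexpression line, against 1325 ± 20.5 TPM in the control line (SD, n = 3 each). Hnrnpab followed with 1003 ± 88.2 TPM in the knockdown line, 1122 ± 43.6 TPM in the overexpression line and 1116 ± 13.4 TPM in the control line, levels that in the control line lay apart from those of Hnrnpa2b1 by more than their spread. The levels of Hnrnpa1, Hnrnpk and Hnrnpf came next. Hnrnpa1, which blocks splice sites and moves between nucleus and cytoplasm, stood at 763 ± 65.6, 775 ± 24.3 and 866 ± 27.2 TPM in the same lines. Hnrnpf had 661 ± 42.7 TPM in the knockdown line and 635 ± 1.82 TPM in the overexpression line, against 529 ± 11.9 TPM in the control line, and Hnrnpk is described with its transcript classes. The highest SR protein gene was Srsf2, at 384 ± 24.7 TPM in the knockdown line and 415 ± 27.9 TPM in the overexpression line, against 398 ± 7.03 TPM in the control line. At the other end, Srsf12 had 0 counts in all 9 libraries, and the pseudogenes Hnrnpa1l2-ps and Hnrnpa1l2-ps2 had at most 16 counts in a library. These 3 did not pass the filter on low counts, and 32 members were tested.

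Together the members made up 1.17% ± 0.04995 of all counts with knockdown and 1.22% ± 0.0168 with overexpression, against 1.25% ± 0.0180 in the control line (SD, n = 3 each). By library the share was 1.213%, 1.188% and 1.116% in the knockdown line and 1.235%, 1.204% and 1.207% in the overexpression line, against 1.228%, 1.255% and 1.263% in the control line. The knockdown libraries all lay below the control libraries, while the overexpression libraries overlapped them. In TPM the sums were 9484 ± 149 with knockdown and 9718 ± 135 with overexpression, against 9606 ± 50.8 in the control line, so the order of the lines is not the same on that scale. In bulk RNA, fewer cells that express a gene and less RNA per cell cannot be told apart.

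Knockdown of Sirpa was accompanied by lower totals of 11 of the 32 members and higher totals of 2 (edgeR's quasi-likelihood test; called at a p under 0.05 after Benjamini-Hochberg adjustment across the 13064 genes that passed the filter). That is 34.4% of the members lower, against 17.4% of all genes tested, and 6.25% higher, against 18.0% of all genes. The median log2 fold change was −0.11 over the members and −0.01 over all genes. No member changed by 2-fold, and the members ranged from −0.57 to 0.25 on the log2 scale.

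Srsf9, a classical SR protein close to Srsf1, fell most among the SR genes. It had 43.3, 50.3 and 41.9 CPM in the knockdown libraries, against 66.3, 65.1 and 60.4 CPM in the control libraries. The groups did not overlap, and the level was 0.707 times that of the control line (log2 fold change −0.50 ± 0.08, SE; adjusted p = 0.00021). Srsf9 shares none of its 31-base words with another gene. Other factors of the SR side were called lower by small amounts: Srsf2, which works in exon definition and in the release of paused transcription (−0.15 ± 0.05; adjusted p = 0.0289), and Tra2b, which binds purine-rich exonic enhancers (−0.15 ± 0.05; adjusted p = 0.0233). Srsf2 shares 23.1% of its words with other genes, most of them with Mettl23, so part of its total is uncertain.

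Hnrnph1, which binds runs of G, had the lowest adjusted p of the family. It was at 387.9, 372.1 and 365.5 CPM in the knockdown libraries, against 510.7, 496.7 and 494.9 CPM in the control libraries (0.749 times; log2 fold change −0.42 ± 0.04; adjusted p = 5.56e-07). Its relative Hnrnph3 had 12.2, 9.997 and 11.1 CPM in the knockdown libraries, against 18.1, 15.4 and 16.02 CPM in the control libraries (−0.57 ± 0.13; adjusted p = 0.00302). All Hnrnph3 libraries of the knockdown line lay below those of the control line, but over coding transcripts alone the log2 fold change was −0.17 (adjusted p = 0.653). The third member of this subfamily, Hnrnph2, was not called (−0.11 ± 0.07; adjusted p = 0.241).

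Hnrnpd, known as AUF1 for its binding to AU-rich elements, had 137.8, 131.7 and 106.5 CPM in the knockdown libraries, against 154.1, 173.0 and 161.0 CPM in the control libraries (log2 fold change −0.37 ± 0.08; adjusted p = 0.00131). Of its relatives, Hnrnpab was lower, with 1134, 1203 and 1019 CPM in the knockdown libraries against 1272, 1317 and 1303 CPM in the control libraries (−0.21 ± 0.05; adjusted p = 0.00286), and Hnrnpdl was not called (0.03 ± 0.05; adjusted p = 0.755). Hnrnpab shares 28.1% of its 31-base words with other genes, most of them with Phykpl, so part of its total is uncertain. Among the A-type hnRNPs only Hnrnpa1 was called, with 820.4, 809.4 and 676.5 CPM in the knockdown libraries against 877.0, 911.8 and 927.8 CPM in the control libraries (−0.24 ± 0.06; adjusted p = 0.00436), and it shares 29.9% of its words, mostly with Gm10052. Hnrnpa0 (adjusted p = 0.169), Hnrnpa2b1 (0.0914) and Hnrnpa3 (0.191) were not called. Hnrnpa2b1 was called lower without knockdown replicate 1 (log2 fold change −0.18; adjusted p = 0.00618), over coding transcripts alone (−0.17; 0.0394) and with no filter on low counts (−0.11; 0.0305), against a log2 fold change of −0.11 over all libraries.

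Hnrnpl, which binds CA repeats, had 410.6, 425.4 and 404.9 CPM in the knockdown libraries, against 459.3, 467.8 and 464.4 CPM in the control libraries (log2 fold change −0.17 ± 0.04; adjusted p = 0.00187). Hnrnpr (−0.19 ± 0.06; adjusted p = 0.0142) and Hnrnpu (−0.14 ± 0.04; adjusted p = 0.0153), a scaffold protein of the nuclear matrix, completed the lower genes. The 2 higher members were Hnrnpf and Tra2a. Hnrnpf, which like Hnrnph1 binds runs of G, had 793.3, 727.3 and 704.1 CPM in the knockdown libraries, against 606.3, 638.8 and 624.4 CPM in the control libraries (0.25 ± 0.04; adjusted p = 0.000241). Hnrnpf shares 66.2% of its words with other genes, the most of any tested member, and its total is uncertain for that reason. Tra2a had 184.5, 171.1 and 171.5 CPM in the knockdown libraries, against 157.8, 158.3 and 148.2 CPM in the control libraries (0.18 ± 0.05; adjusted p = 0.0049). Tra2a and its paralogue Tra2b thus moved in opposite directions.

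Several of the smaller calls did not hold when a library was left out. Over all alternatives their log2 fold changes kept their sign, at −0.18 to −0.12 for Tra2b, −0.18 to −0.10 for Srsf2, −0.24 to −0.15 for Hnrnpr and −0.17 to −0.09 for Hnrnpu. Tra2b was no longer called without control replicate 1 (adjusted p = 0.0842) or 3 (0.12) or without knockdown replicate 2 (0.0615) or 3 (0.0862), nor over coding transcripts alone (0.0605). Srsf2 was not called without control replicate 1 (0.0967), 2 (0.0558) or 3 (0.0818) or without knockdown replicate 1 (0.146). Hnrnpr was not called without control replicate 1 (0.0715) or 3 (0.0522) or knockdown replicate 3 (0.0631). Hnrnpu was not called without control replicate 2 (0.0664) or 3 (0.0892) or knockdown replicate 3 (0.0686), nor over coding transcripts alone (0.272).

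**Figure D1:**
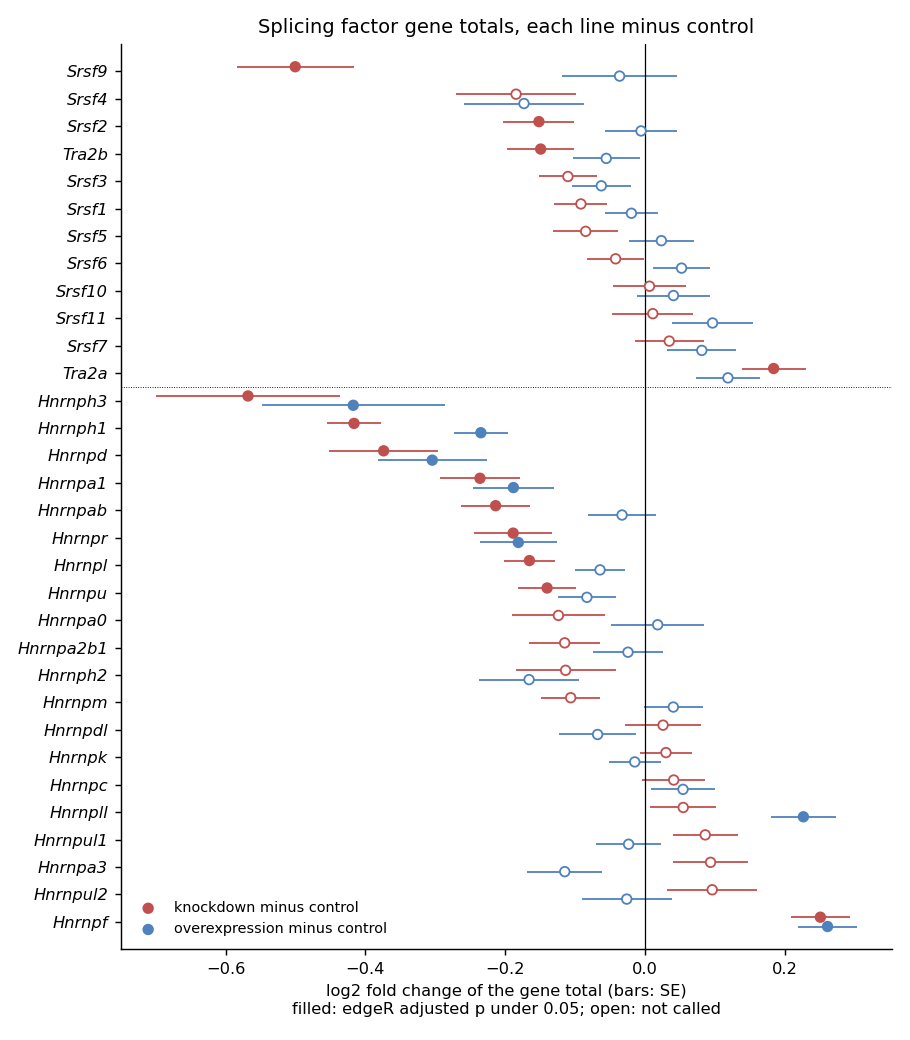
Log2 fold change of each tested member in the knockdown and the overexpression line minus control (x axis; bars, SE), SR and Tra2 genes above the dotted line and hnRNP genes below it; filled points passed an adjusted p of 0.05. In the knockdown line 11 of 32 members were called lower and 2 higher, in the overexpression line 5 lower and 2 higher, and both sets of values use the same control libraries.

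Overexpression of Sirpa was accompanied by lower totals of 5 members and higher totals of 2. That is 15.6% lower, against 11.1% of all genes tested, and 6.25% higher, against 13.1% of all genes, with a median log2 fold change of −0.03 over the members and −0.00 over all genes. This comparison uses the same control libraries as the knockdown comparison, so the values of the lines are not independent. The 5 lower genes were all hnRNPs, and no SR or Tra2 gene was called. Hnrnph1 had 424.9, 440.3 and 411.6 CPM in the overexpression libraries, all below the 494.9 to 510.7 CPM of the control libraries (−0.23 ± 0.04; adjusted p = 0.000348). Hnrnpd had 140.6, 128.6 and 125.7 CPM in the overexpression libraries, against 154.1 to 173.0 CPM in the control libraries (−0.30 ± 0.08; adjusted p = 0.00888). Hnrnpa1 had 826.3, 768.9 and 789.0 CPM in the overexpression libraries, against 877.0 to 927.8 CPM in the control libraries (−0.19 ± 0.06; adjusted p = 0.0256).

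Hnrnpr had 127.7, 134.3 and 120.5 CPM in the overexpression libraries, against 150.1, 137.7 and 145.8 CPM in the control libraries (log2 fold change −0.18 ± 0.06; adjusted p = 0.0255). Hnrnph3 had 10.9, 13.6 and 12.6 CPM in the overexpression libraries, against 15.4 to 18.1 CPM in the control libraries (−0.42 ± 0.13; adjusted p = 0.0289), and over coding transcripts alone its adjusted p was 0.526. Hnrnpf was higher, with 748.0, 751.1 and 741.9 CPM in the overexpression libraries against 606.3 to 638.8 CPM in the control libraries (0.26 ± 0.04; adjusted p = 0.000294). Hnrnpll, a paralogue of Hnrnpl known for the splicing of Ptprc in lymphocytes, had 157.1, 162.9 and 161.6 CPM in the overexpression libraries, against 136.0, 138.3 and 137.1 CPM in the control libraries (0.23 ± 0.05; adjusted p = 0.00209). The overexpression libraries of each of these genes lay to one side of the control libraries, as they also did in the uncalled Srsf4, Srsf11, Tra2a, Hnrnpa3, Hnrnph2 and Hnrnpl. The share of all tested genes whose totals separate in this way was not computed, so this separation is not a result about the members.

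The call of Hnrnpa1 ended without control replicate 2 (adjusted p = 0.0789) or 3 (0.0953) and without overexpression replicate 2 (0.103) or 3 (0.0704), and that of Hnrnpd without control replicate 2 (0.0537). The call of Hnrnpr ended without control replicate 1 (0.114) or 3 (0.0739) and without overexpression replicate 1 (0.062) or 3 (0.112), and that of Hnrnph3 without control replicate 1 (0.122) or 3 (0.0538) and without overexpression replicate 1 (0.129) or 3 (0.0626). Without control replicate 3, or without overexpression replicate 3, 4 members were called in place of 7. The calls of Hnrnph1, Hnrnpf and Hnrnpll held in all 9 fits that left out a library.

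Set directly against each other, the overexpression line had higher totals than the knockdown line in 5 members and a lower total in 1. That is 15.6% higher, against 11.0% of all genes tested, and 3.12% lower, against 11.1%. Srsf9 differed most, with 63.3, 56.5 and 67.1 CPM in the overexpression libraries against 43.3, 50.3 and 41.9 CPM in the knockdown libraries (log2 fold change 0.46 ± 0.08; adjusted p = 0.000787). Hnrnph1 was also higher in the overexpression line (0.18 ± 0.04; adjusted p = 0.00308), as were Hnrnpab (0.18 ± 0.05; adjusted p = 0.014), Hnrnpll (0.17 ± 0.05; adjusted p = 0.0139) and Hnrnpm (0.15 ± 0.04; adjusted p = 0.0188). Hnrnpa3 was lower in the overexpression line, with 587.9, 617.0 and 590.8 CPM against 762.8, 631.4 and 680.3 CPM in the knockdown line (−0.21 ± 0.05; adjusted p = 0.0097). Hnrnpa3 shares 28.1% of its words with other genes, most of them with Gm5641, so part of its total is uncertain. The calls of Hnrnpab and Hnrnpm ended without knockdown replicate 3 (adjusted p = 0.0602 and 0.0972), where the log2 fold change of Hnrnpab was 0.11. They also ended without overexpression replicate 1 (0.0794 and 0.0746), that of Hnrnpab without overexpression replicate 3 (0.0567), that of Hnrnpm without overexpression replicate 2 (0.0879), and that of Hnrnpll without overexpression replicate 2 (0.0568) or 3 (0.0578) or over coding transcripts alone (0.107).

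**Figure D2:**
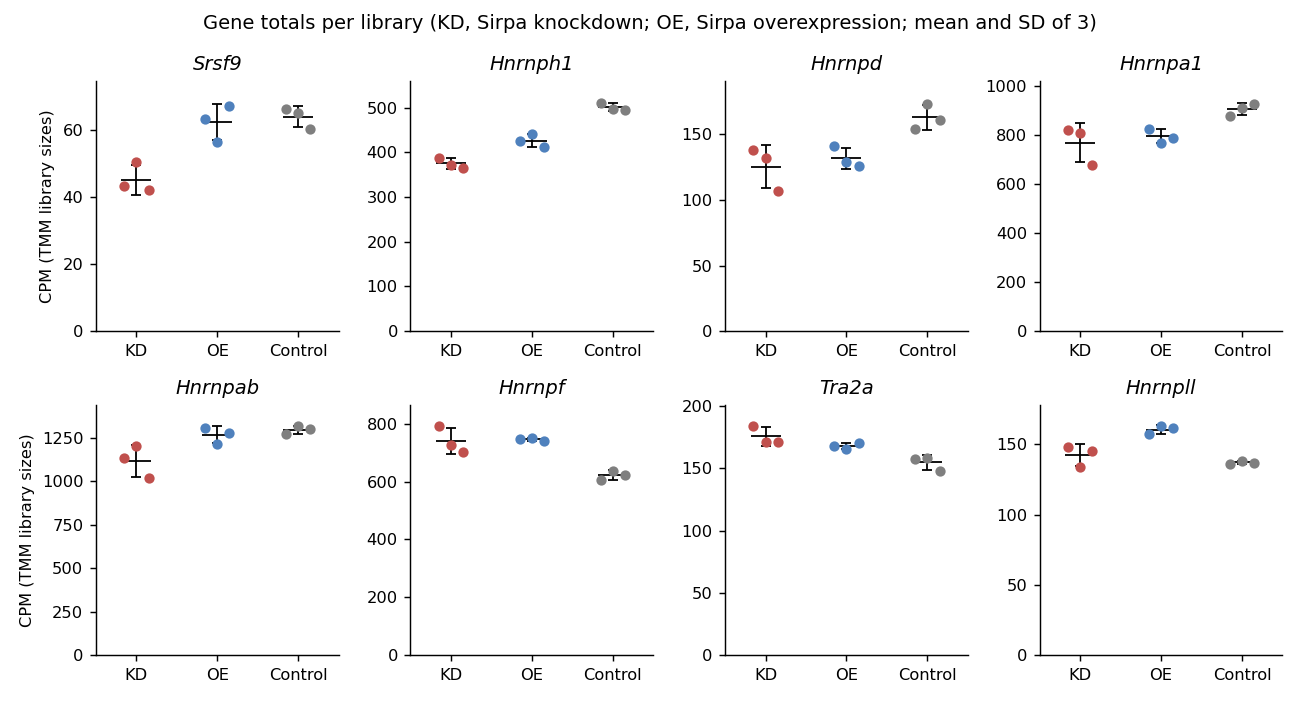
Gene totals in CPM (y axis, from 0) of 8 members in each library of the knockdown (KD), overexpression (OE) and control lines; points are libraries and bars the mean and SD of 3. Srsf9 is lower in the KD libraries alone (41.9 to 50.3 CPM), Hnrnph1 is lower in both perturbed lines than in control, and Hnrnpf is higher in both.

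Most reads of the family lay in coding transcripts. Pooled over the 33 protein-coding members, coding transcripts held 88.5% ± 0.789 of the reads with knockdown and 88.0% ± 0.194 with overexpression, against 88.6% ± 0.332 in the control line (SD, n = 3 each). Decay transcripts held 7.43% ± 0.460 with knockdown and 7.55% ± 0.245 with overexpression, against 7.75% ± 0.136 in the control line. Hnrnpu held the greater part of these decay reads, and without it the decay share was 3.30% ± 0.370, 3.46% ± 0.212 and 3.38% ± 0.111 in the same lines. A share is a part of estimated counts, which Salmon divides among transcripts that overlap over most of their length.

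The pooled retained intron share was 3.07%, 2.73% and 3.60% in the knockdown libraries and 3.28%, 3.38% and 3.35% in the overexpression libraries, against 2.89%, 2.36% and 2.48% in the control libraries. The overexpression libraries all lay above the control libraries, and the knockdown libraries overlapped them. The SR and Tra2 genes held more of their reads in retained intron transcripts than the hnRNP genes, 6.93% ± 0.363 against 1.98% ± 0.443 in the knockdown line, 7.29% ± 0.332 against 2.10% ± 0.138 in the overexpression line and 6.48% ± 0.611 against 1.399% ± 0.161 in the control line.

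**Figure D3:**
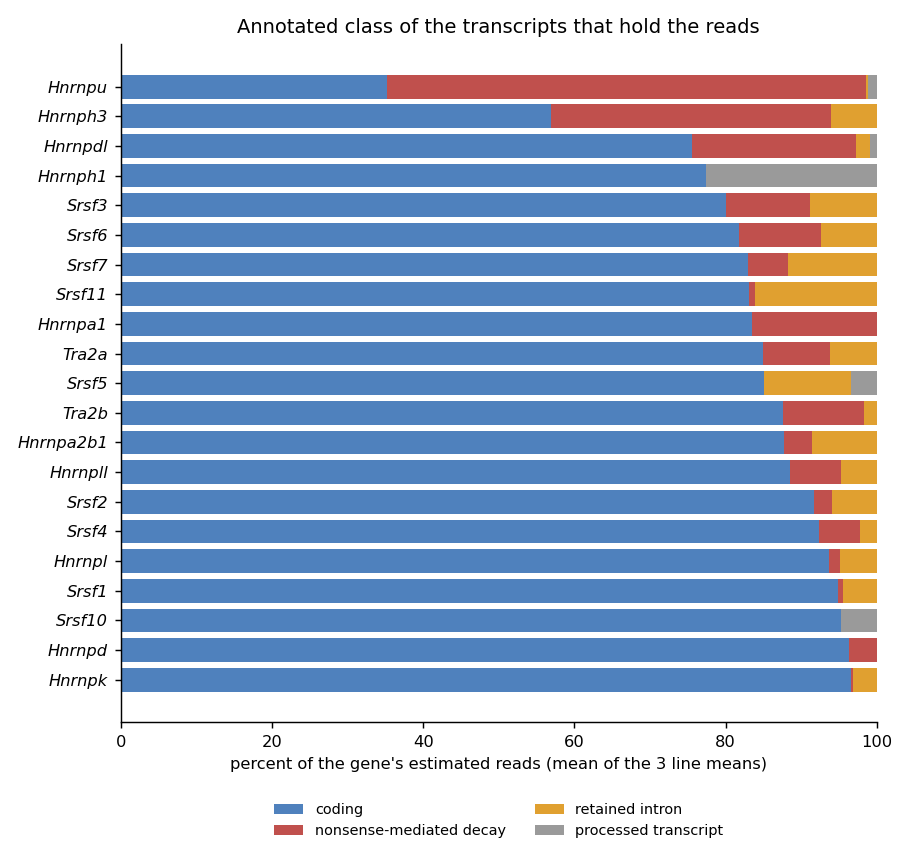
Percent of each gene's estimated reads (x axis, mean of the 3 line means) in transcripts of each annotated class, for the 21 tested members with less than 99% of reads in coding transcripts. Hnrnpu holds most of its reads in a decay transcript, while Hnrnph1 has none annotated for decay and 22.6% in processed transcripts.

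The gene with the largest decay share was Hnrnpu. Decay transcripts held 61.9%, 62.6% and 64.9% of its reads in the knockdown libraries and 62.4%, 63.7% and 61.9% in the overexpression libraries, against 65.1%, 64.2% and 64.0% in the control libraries. The overexpression libraries lay just below the control libraries, and the knockdown libraries overlapped them. Nearly all of these reads were those of Hnrnpu-206, whose stop lies 183 bases before its last junction and in an exon that a coding transcript also has, outside that transcript's reading frame. Its last codons are set beside those of the leading coding transcript Hnrnpu-201, with the stop in capitals.
Hnrnpu-206 (decay, chromosome 1): gtccatgtgaatgtgctgtgtgaagagTAA
Hnrnpu-201 (coding, chromosome 1): agtcagcattatcaccaaggatattatTGA
The reading frames hold 793 and 800 codons before the stop.

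Among the other hnRNP genes, decay transcripts held 13.0%, 14.9% and 16.1% of the reads of Hnrnpa1 in the knockdown libraries and 19.6%, 18.4% and 17.8% in the overexpression libraries, against 14.5%, 17.4% and 16.9% in the control libraries. The overexpression libraries lay above all control libraries and the knockdown libraries overlapped them (log2 odds difference 0.23 ± 0.24, SE, for overexpression against control; limma adjusted p = 0.998). Hnrnpdl, whose decay transcript Hnrnpdl-201 uses the stop of the coding transcript, held 19.5% ± 2.80 of its reads in decay transcripts with knockdown and 22.8% ± 2.38 with overexpression, against 22.8% ± 4.32 in the control line. In Hnrnph3, with few reads in all, the share was 18.6%, 33.9% and 24.5% in the knockdown libraries and 41.9%, 19.97% and 58.9% in the overexpression libraries, against 51.3%, 46.8% and 38.3% in the control libraries. The knockdown libraries of Hnrnph3 lay below all control libraries, and the overexpression libraries spread across both.

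In the SR and Tra2 genes the decay transcripts with a stop outside the coding exons held shares that varied between repeats. Srsf3-201, the poison exon transcript of the smallest SR protein gene, held 6.83%, 9.71% and 12.8% of the reads of Srsf3 in the knockdown libraries and 10.9%, 11.6% and 11.2% in the overexpression libraries, against 12.6%, 11.2% and 12.4% in the control libraries. The knockdown libraries spread from below to above all libraries of the other lines. Decay transcripts of Tra2b held 8.87%, 11.1% and 12.3% of its reads in the knockdown libraries and 12.3%, 7.53% and 15.7% in the overexpression libraries, against 7.27%, 9.35% and 12.04% in the control libraries. The lines overlapped, although the total of Tra2b was lower in the knockdown line. In Tra2a, whose total was higher there, the share was 9.07% ± 0.722 with knockdown and 9.03% ± 0.821 with overexpression, against 8.36% ± 1.90 in the control line.

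Srsf6-201 held 11.6%, 16.4% and 12.8% of the reads of Srsf6 in the knockdown libraries and 9.57%, 9.08% and 15.2% in the overexpression libraries, against 8.06%, 10.4% and 4.89% in the control libraries. All knockdown libraries lay above the control libraries (log2 odds difference 0.95 ± 0.43; limma adjusted p = 0.76), while the total of Srsf6 was not called (−0.04 ± 0.04 on the log2 scale; edgeR adjusted p = 0.472). Srsf7-203 held 6.31% ± 1.74 of the reads of Srsf7 with knockdown and 4.08% ± 0.188 with overexpression, against 5.68% ± 0.462 in the control line.

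No member's decay share was called in any contrast, and none reached an unadjusted p under 0.05 among the 19 members tested (limma on the log2 odds of the share). The same test over all 1920 genes with enough reads called 2 genes for knockdown against control (0.104%), 0 for overexpression against control (0%) and 2 for overexpression against knockdown (0.104%), with 132, 92 and 98 genes at an unadjusted p under 0.05. A count test of transcript use (edgeR diffSpliceDGE) called 0 members, and its count over all genes is not given here. The libraries did not overlap for 1 member with a higher share in knockdown than in control (Srsf6; 5.26%, against 5.16% of all genes) and for 1 with a lower share (Hnrnph3; 5.26%, against 5.94%). For overexpression against control there were 2 higher (Hnrnpa1 and Srsf4; 10.5%, against 5.42%) and 2 lower (Hnrnpu and Srsf7; 10.5%, against 5.42%).

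The largest retained intron shares were in Srsf11, an SR-like protein that contacts the U2AF complex, and in Srsf5, Srsf7 and Srsf3. Retained intron transcripts held 19.2%, 15.1% and 18.6% of the reads of Srsf11 in the knockdown libraries and 19.2%, 15.6% and 20.7% in the overexpression libraries, against 13.1%, 10.6% and 13.2% in the control libraries. Both perturbed lines lay above all control libraries. The log2 odds difference was 0.61 ± 0.30 for knockdown and 0.70 ± 0.30 for overexpression (limma adjusted p = 0.779 in both). The transcript with most of these reads, Srsf11-208, held 7.14%, 7.71% and 7.28% of the reads in the knockdown libraries and 6.65%, 7.70% and 9.68% in the overexpression libraries, against 7.10%, 5.72% and 6.13% in the control libraries, so it overlapped between overexpression and control. Srsf11-213 held 8.83%, 2.89% and 4.86% in the knockdown libraries and 7.11%, 3.54% and 6.16% in the overexpression libraries, against 2.28%, 1.99% and 3.69% in the control libraries.

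Hnrnpa2b1 showed the same order of lines at lower shares. Its retained intron transcripts held 8.73%, 7.56% and 11.04% of the reads in the knockdown libraries and 10.3%, 10.4% and 9.67% in the overexpression libraries, against 7.07%, 5.67% and 6.73% in the control libraries. Both perturbed lines lay above all control libraries, with a log2 odds difference of 0.52 ± 0.22 for knockdown (unadjusted p = 0.045; limma adjusted p = 0.723) and 0.70 ± 0.22 for overexpression (unadjusted p = 0.0125; limma adjusted p = 0.666). The count test of transcript use called both (edgeR diffSpliceDGE adjusted p = 0.0462 for knockdown and 0.00707 for overexpression), and in these comparisons with control it called no other member's retained intron share. It called 25 and 12 of the 4074 genes. Of its retained intron transcripts, Hnrnpa2b1-211 held 4.04%, 3.77% and 5.48% of the reads in the knockdown libraries and 5.04%, 4.89% and 4.37% in the overexpression libraries, against 3.28%, 2.58% and 2.82% in the control libraries.

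In Srsf3 the lines parted in another way. Its retained intron share was 8.23%, 8.16% and 7.50% in the knockdown libraries and 10.6%, 9.62% and 10.3% in the overexpression libraries, against 8.25%, 8.44% and 8.59% in the control libraries. The overexpression libraries lay above all others (log2 odds difference 0.30 ± 0.21 against control; limma adjusted p = 0.863), and the knockdown libraries lay just below the control libraries. In Tra2a the share was 5.81%, 7.11% and 4.32% in the knockdown libraries and 7.54%, 7.48% and 6.90% in the overexpression libraries, against 5.75%, 5.87% and 5.14% in the control libraries. Srsf5, with 11.5% ± 1.43 with knockdown and 12.4% ± 2.35 with overexpression against 10.9% ± 1.13 in the control line, and Srsf7, with 11.4% ± 0.382 and 12.1% ± 0.605 against 11.7% ± 1.04, overlapped between each perturbed line and the control line.

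**Figure D4:**
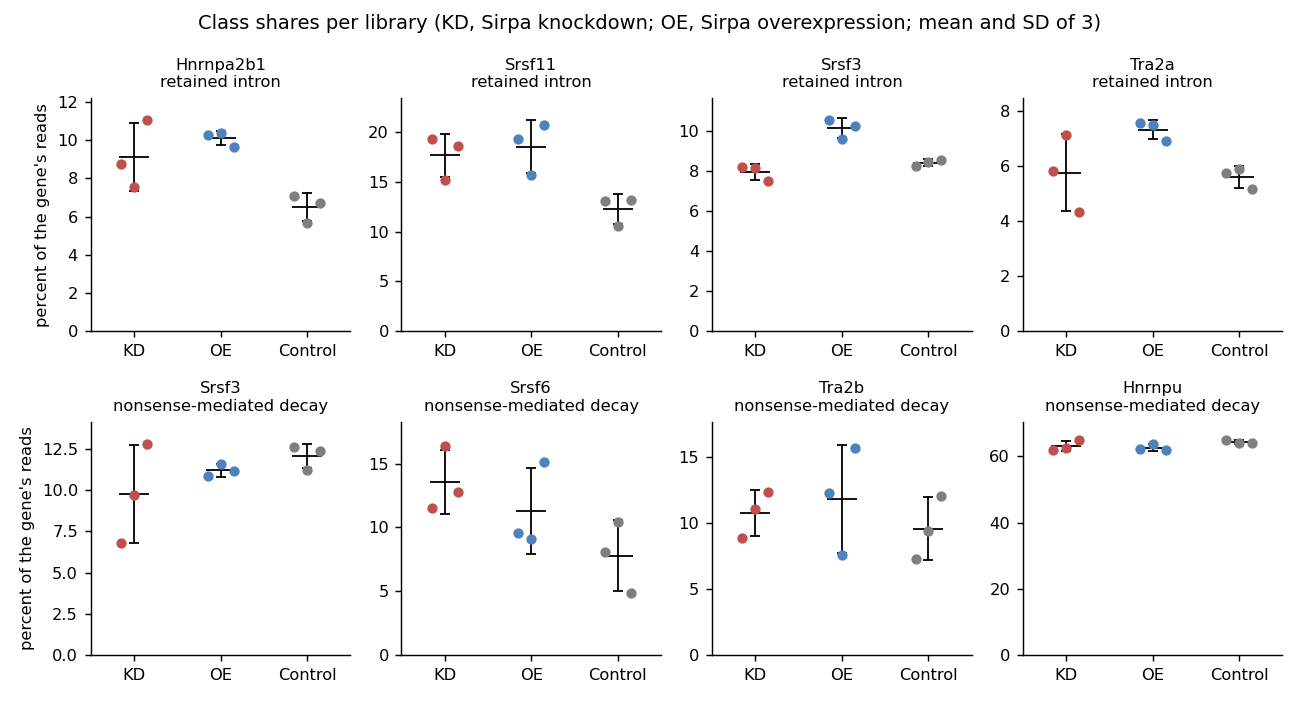
Percent of a gene's reads (y axis, from 0) in retained intron transcripts (upper row) or decay transcripts (lower row) in each library of the knockdown (KD), overexpression (OE) and control lines; bars are the mean and SD of 3. The retained intron shares of Hnrnpa2b1 and Srsf11 lie above control in both perturbed lines, those of Srsf3 and Tra2a in the OE line alone, and the decay shares of Srsf3 and Tra2b overlap between lines.

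No member's retained intron share was called by limma among the 21 tested, with 3 members at an unadjusted p under 0.05 for knockdown against control, 2 for overexpression against control and 2 for overexpression against knockdown. Over all 4074 genes with enough reads the test called 4 (0.0982%), 0 (0%) and 1 (0.0245%) in these contrasts, and 280, 247 and 263 genes had an unadjusted p under 0.05. For overexpression against control the libraries did not overlap for 7 members, all higher (33.3%, against 8.98% of all genes), and for 0 lower (3.66% of all genes). The 7 were Hnrnpa2b1, Hnrnpa3, Hnrnpdl, Hnrnpl, Srsf3, Srsf11 and Tra2a. Hnrnpa3 had at most 0.215% of its reads in the class, 11.0 reads per library on average. The median log2 odds difference in this contrast was 0.17 over the members and also 0.17 over all genes, so the members did not stand apart in this measure. For knockdown against control there were 4 higher members (19.0%, against 5.79% of all genes) and 2 lower (9.52%, against 5.94%), with medians of 0.02 over the members and 0.00 over all genes. The 4 were Hnrnpa2b1, Srsf11, Hnrnpr and Hnrnpu, the last 2 with under 1.1% of their reads in the class. The 2 were Srsf3 and Hnrnpm, and Hnrnpm had at most 1.03% of its reads in the class.

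The level of Hnrnpk, a poly(C)-binding hnRNP, had a different order of lines in CPM and in TPM. Its total in CPM was not called (log2 fold change 0.03 ± 0.04 for knockdown and −0.01 ± 0.04 for overexpression against control; adjusted p = 0.573 and 0.827). Its TPM was 858 ± 115 with knockdown and 749 ± 99.2 with overexpression, against 676 ± 53.0 in the control line. The retained intron transcripts of Hnrnpk held 3.19%, 2.59% and 7.36% of its reads in the knockdown libraries and 1.46%, 3.71% and 5.23% in the overexpression libraries, against 2.65%, 2.19% and 0.538% in the control libraries. The lines overlapped (limma adjusted p = 0.807 for knockdown and 0.863 for overexpression). As shares of its TPM they averaged 20.6% with knockdown and 15.1% with overexpression, against 8.33% in the control line. Short coding transcripts also varied: Hnrnpk-223 had 12.6, 72.1 and 81.01 TPM in the knockdown libraries and 23.1, 11.6 and 81.3 TPM in the overexpression libraries, against 12.4, 2.20 and 20.7 TPM in the control libraries. The part of either in the TPM of the gene was not tested.

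Other genes of the pathway were read against the same shares of all genes, 18.0% higher and 17.4% lower for knockdown and 13.1% higher and 11.1% lower for overexpression. Of 9 tested SR protein kinases and phosphatases, 2 were higher (22.2%) and 1 lower (11.1%) in the knockdown line, and 1 was higher (11.1%) and 0 lower in the overexpression line. These shares lie near those of all genes. The called genes were Srpk2 (0.26 ± 0.07; adjusted p = 0.00843), which phosphorylates SR proteins in the cytoplasm, Prpf4b (0.21 ± 0.06; adjusted p = 0.0165), a kinase of the spliceosome, and Clk2 (−0.24 ± 0.09; adjusted p = 0.0448) for knockdown, and Clk1 (0.27 ± 0.07; adjusted p = 0.0133) for overexpression. The call of Srpk2 ended without control replicate 2 (0.0518), that of Prpf4b without control replicate 2 (0.0534) or 3 (0.0607) or knockdown replicate 1 (0.1), and that of Clk1 without control replicate 1 (0.0515) or overexpression replicate 1 (0.0691). Over coding transcripts alone Clk1 was not called either (log2 fold change 0.20, edgeR adjusted p = 0.252). The call of Clk2 ended without control replicate 1 (0.205) or 3 (0.123), without knockdown replicate 1 (0.146) or 2 (0.149) and without overexpression replicate 1 (0.0581), 2 (0.0612) or 3 (0.0607).

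Of 34 other splicing regulators tested, 7 were higher (20.6%) and 11 lower (32.4%) in the knockdown line, and 2 were higher (5.88%) and 4 lower (11.8%) in the overexpression line. The count lower with knockdown was 6 without control replicate 1 and 7 without control replicate 3 or knockdown replicate 2. Mbnl1, a regulator of developmental splicing, averaged 311 ± 16.2 CPM in the knockdown line and 217 ± 3.74 CPM in the overexpression line, against 158 ± 5.98 CPM in the control line (SD, n = 3 each; log2 fold change 0.97 ± 0.05 and 0.45 ± 0.05; adjusted p = 2.24e-10 and 3.32e-06), more than any hnRNP or SR gene. Syncrip, close to Hnrnpr and also called hnRNP Q, was lower in the knockdown line (−0.49 ± 0.04; adjusted p = 1.41e-07). Matr3, a protein of the nuclear matrix, was lower for knockdown (−0.47 ± 0.05; adjusted p = 1.72e-06) and for overexpression (−0.24 ± 0.05; adjusted p = 0.00191), and Sfpq was lower in the overexpression line (−0.19 ± 0.04; adjusted p = 0.000785).

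Of the 35 tested genes of the core spliceosome, 3 were higher (8.57%) and 9 lower (25.7%) in the knockdown line, and 3 were higher (8.57%) and 3 lower (8.57%) in the overexpression line. The 3 lower with overexpression were Sf3b6, Snrnp200 and Snrpd1; 1 gene was called lower without control replicate 1 or without overexpression replicate 2, and 5 without knockdown replicate 3. Subunits of the SF3b complex, which holds the branch point, were called in both directions: Sf3b4 was higher (0.34 ± 0.05 for knockdown and 0.30 ± 0.05 for overexpression; adjusted p = 9.95e-05 and 0.000605), Sf3b6 was lower (−0.47 ± 0.08 and −0.34 ± 0.07; adjusted p = 0.000143 and 0.00343), and Sf3b3 was lower in the knockdown line (−0.19 ± 0.04; adjusted p = 0.0013). Prpf3, a protein of the tri-snRNP, was higher in the overexpression line (0.30 ± 0.07; adjusted p = 0.00527). Of 17 genes of nonsense-mediated decay and the exon junction complex, 2 were higher (11.8%) and 3 lower (17.6%) in the knockdown line, and 0 were higher and 3 lower (17.6%) in the overexpression line. The share lower with knockdown is near the 17.4% of all genes. Eif4a3, the helicase that anchors the exon junction complex, averaged 130 ± 2.22 CPM in the knockdown line and 144 ± 2.65 CPM in the overexpression line, against 164 ± 1.77 CPM in the control line (−0.33 ± 0.04 and −0.18 ± 0.04; adjusted p = 1.22e-05 and 0.00437). Smg9, a regulator of the decay kinase Smg1, was lower in both lines (−0.39 ± 0.07 and −0.30 ± 0.07; adjusted p = 0.00043 and 0.00551), Upf3b was higher in the knockdown line (0.29 ± 0.07; adjusted p = 0.00311), and the endonuclease gene Smg6 was lower in the overexpression line (−0.36 ± 0.08; adjusted p = 0.00276). With an offset for transcript length the calls of Srpk2 (adjusted p = 0.417), Prpf4b (0.416), Clk2 (0.114) and Eif4a3 (0.0589) ended for knockdown, as did those of Clk1 (0.0587), Matr3 (0.374), Prpf3 (0.309) and Eif4a3 (0.493) for overexpression.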

How the data were processed

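Per the labels' protocols, the libraries were non-directional and were read from both ends over 150 bases, so overlapping genes on opposite strands cannot be told apart. The authors deposited 1 Salmon table per library with the estimated count (a number of fragments that need not be whole), the TPM and the effective length in bases (the other unit in the tables) of each transcript, per the file headers. The submitters' processing notes name Salmon 1.4.0, MultiQC 1.11, DESeq2 1.34.0 and the build mm39; the annotation is not given in the sources used here.

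Transcripts were matched by identifier to GENCODE M21 (GRCm38), which gave the genes, the transcript classes and the sequences (97.42% of 140789 transcripts; the rest held 0.554% to 0.654% of counts). No coordinates are given, since the builds differ. Estimated counts were summed per gene and rounded. The main test of totals was edgeR 4.0.16 in R 4.3.3 (filterByExpr, TMM, quasi-likelihood fit of all 9 libraries and no term besides line). Shares were tested with limma 3.58.1 on the log2 ratio of reads in a class to reads in the rest, each plus 0.5, for genes with at least 5 reads on average in both. A call is an adjusted p (Benjamini-Hochberg, all features tested) under 0.05. Standard errors of log2 fold changes come from the change and its F statistic. CPM uses TMM library sizes. Shared sequence is the percentage of a gene's 31-base words that another gene also holds.

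Replicate pairs of a line differed by more than sampling noise (chi-square per degree of freedom 4.79 to 10.6). The members and gene lists were chosen with earlier results of these data known. Members to be named with values were the 5 with the highest TPM in the control line and, for each comparison with control, up to 6 called members in each direction by adjusted p. The totals of Hnrnpa2b1 and Hnrnpk are given as means and SD only. Hnrnpa3, called only between the perturbed lines, is given by library as well. The shares named were chosen after their values were seen. From each list up to 3 called genes were named. Steps were also run on simulated data with known changes, and the outcome is not given here. Those runs do not show whether share differences of the size seen here could be called.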

Additional observations from a re-analysis of the deposited data

How the results depend on the processing

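Gene totals were refitted under 16 alternatives, among them DESeq2, other filters and size factors, and leaving out each library. In 3 comparisons and 31 named changes the direction held, except for the uncalled Hnrnpk, which was at −0.0064 for knockdown against control over coding transcripts alone (chosen after seeing the data), between −0.0029 and 0.0622 when single libraries were left out, and at 0.099 for overexpression against control with a transcript length offset. With that offset 4 members were called for overexpression against control, losing Hnrnpa1, Hnrnpd and Hnrnph3, and 2 for overexpression against knockdown, losing Hnrnpa3, Hnrnpab, Hnrnpll and Hnrnpm; for knockdown against control 10 were called, losing Hnrnph3, Hnrnpl, Srsf2 and Tra2b and gaining Hnrnpm. The cause was not tested. Leaving out single libraries gave 9 to 15 members for knockdown against control in place of 13, 4 to 8 for overexpression against control in place of 7, and 4 to 9 for overexpression against knockdown in place of 6. DESeq2 called 15, 7 and 8. The numbers of all genes whose totals were called under the alternatives are not given here. A loss or gain among the members can therefore not be told from a general one. The shares of both classes gave 0 called members under all alternatives except edgeR diffSpliceDGE, which called 1 retained intron share for knockdown against control and 1 for overexpression against control, both Hnrnpa2b1.

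Equal replicate numbers did not pair the libraries: the correlation of deviations was −0.0927 to 0.127 over 9 same-numbered pairs and −0.131 to 0.0926 over 18 others. With a replicate block 14, 7 and 7 members were called, and 0 shares of either class; of the other genes named, Clk2 was no longer called for knockdown against control (adjusted p = 0.0507). The decay class of Hnrnph3, with 91.1 reads per library on average, ranged from 19.97% to 58.9% between overexpression libraries; how much of this is depth and how much read assignment was not tested.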
